A study of Homo sapiens with 9 samples.

Results

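Epithelia that face the outside of the body or the lumen of a duct secrete proteins that bind, digest or puncture microbes, and many of the same genes are induced during the acute-phase response. Transcripts of 10 such genes were followed here: LCN2, LYZ and DEFB1, which encode antimicrobial effectors, SAA1 and SAA2, which encode acute-phase serum amyloid A proteins, PI3 and SLPI, which encode inhibitors of neutrophil elastase, and PIGR, DMBT1 and CD14, which encode proteins that bind antibodies or microbial surfaces. PIGR and CD14 are anchored in the membrane and are also shed in soluble form. The members were all probe sets, that is, groups of short oligonucleotides on the array that report 1 transcript, whose platform gene symbol was one of these names. Of the 10 genes, 8 had 11 probe sets of their own, among 19775 genes with an own probe set in all. SAA1 and SAA2 had none, and are read together by 2 shared probe sets, so that 13 probe sets were described.

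RNA came from HuCCT1, an established human line from a cholangiocarcinoma, a bile duct cancer. The empty vector group (4 arrays) was transfected with a vector without insert, and the YAPS127A group (5 arrays) with a vector for the constitutively active S127A mutant of YAP1, the transcriptional co-activator restrained by the Hippo pathway. Both groups share the parental line and the culture medium, and the labels name neither a promoter, a time after transfection nor whether cells were selected or cloned. The labels number the arrays and do not mention separate cultures, so p-values measure the spread between these arrays, which may be technical.

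The induction of these genes is well described in epithelia as background. Interleukin 1, interleukin 17 and Toll-like receptors activate NF-kB, which acts on LCN2 and the SAA genes together with IkB-zeta, the product of NFKBIZ, and with C/EBP factors, while STAT3 carries the signal of interleukin 6. In bile ducts, PIGR carries dimeric immunoglobulin A into bile, and lysozyme and defensins are secreted along the duct.

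The array medians lay between 5.95 and 5.98 on the log2 scale and the lower quartiles between 4.24 and 4.27, and the SD of the difference between 2 arrays was 0.192 to 0.252 within groups and 0.413 to 0.439 between groups. The biliary and epithelial markers KRT7, KRT19 and EPCAM had mean log2 signals of 13.60, 14.19 and 13.02 with the empty vector and 13.49, 14.21 and 12.96 with YAPS127A. Of the same list of 16 biliary markers, 5 passed as lower, 1 as higher and 10 did not pass. Among all genes, 14.2% were lower and 14.5% higher. The markers that passed were CFTR (-2.72), TFF1 (-1.46), SPP1 (-1.37), MUC1 (-1.06) and SOX9 (-0.25) as lower, and KRT8 (0.30) as higher. These 6 were named after their values were seen. CFTR was lower at 3 of its 6 probe sets. With YAPS127A, CFTR and SPP1 lay below the array medians, so the size of their falls is not exact. None of the 3 probe sets of YAP1 passed in limma, with differences of 0.15, 0.16 and 0.03 (adjusted p = 0.121, 0.171 and 0.803). The sources do not state whether the construct is within their reach, so they do not check the labels.

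Most of the member genes were lower with YAPS127A. PIGR and LYZ had the largest falls among the members, with log2 differences of -2.28 and -2.25 (4.85-fold and 4.74-fold lower), followed by DEFB1 (2.32-fold), LCN2 (1.69-fold), the shared SAA1 and SAA2 probe sets (1.61-fold and 1.92-fold), CD14 (1.36-fold) and PI3 (1.33-fold). SLPI and DMBT1 did not pass the test. Taking the brightest probe set of each gene and counting SAA1 and SAA2 as 1, 7 of 9 fell and 0 rose (limma, adjusted p under 0.05 over all probe sets). Among all 19775 genes, 28.7% passed in either direction and 14.2% passed as lower. The median difference of the 9 was -0.69 and that of all genes 0.00477. By probe set, 9 of 13 fell and 0 rose in limma, with 0 higher also at an unadjusted p under 0.05, and 12% of all 54613 probe sets passed as lower. In either direction 23.9% of all probe sets passed. The groups did not overlap at 9 of the 13 probe sets, against 22.3% of all, and at 7 of the 9 brightest, against 28.3% of all genes. A fall of at least 2-fold was seen for 3 genes, PIGR, LYZ and DEFB1, against 1.52% of all genes and 1.16% of all probe sets. The list was chosen with earlier results of these arrays known, so the count is a description and not independent evidence.

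**Figure D1:**
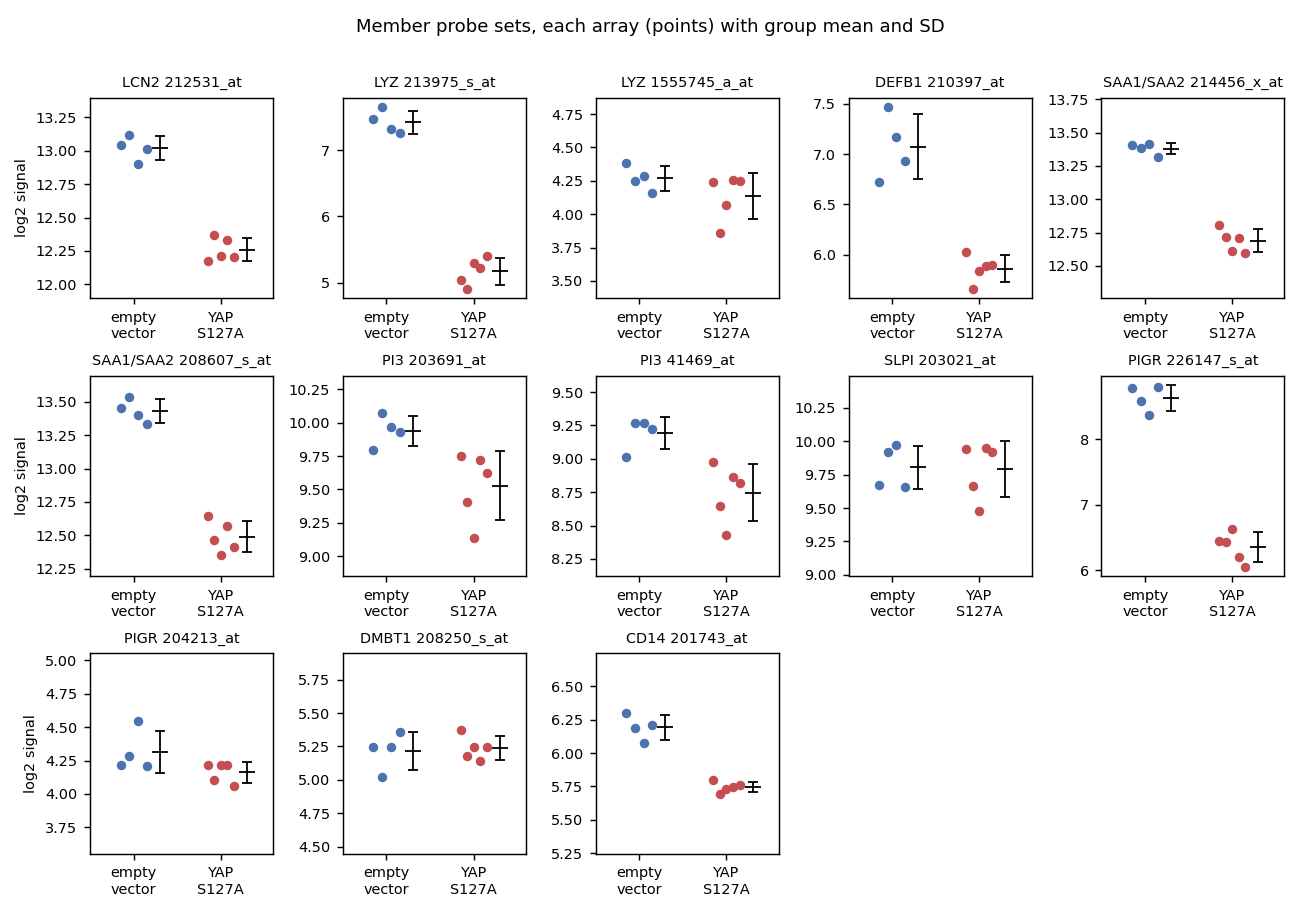
Log2 signal of each of the 13 probe sets (panels, each with its own vertical axis) on the 4 empty vector arrays (blue) and the 5 YAPS127A arrays (red), with the mean and SD of each group as a black bar beside the points. In 9 panels all red points lie below all blue points, and in the panels of SLPI, DMBT1 and the second probe sets of LYZ and PIGR the groups overlap.

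Promoter sequence was examined for the members that RefSeq's promoter table (GRCh38.p14) holds. LCN2, PIGR, DMBT1 and CD14 matched by symbol, 4 of 10, and SAA1, SAA2, LYZ, SLPI, PI3 and DEFB1 did not. The 250 bases before the annotated start are shown for the 3 that fell. Sequence outside this window was not searched. Capitals mark letters that match 1 of 5 motifs, searched on both strands: NF-kB as GGGAA, any 3 bases and CC, C/EBP as TTNNGNAA, STAT as TTCNNNGAA, AP-1 as TGANTCA and TEAD, the DNA-binding partner of YAP1, as GGAATG. The form of each motif was chosen with the promoters in view. Of the 35116 promoters in the table, 6.02% held the NF-kB letters, 33.2% the C/EBP letters, 6.57% the STAT letters, 6.57% the AP-1 letters and 11.9% the TEAD letters.
LCN2, chr9:128149203-128149452, plus strand: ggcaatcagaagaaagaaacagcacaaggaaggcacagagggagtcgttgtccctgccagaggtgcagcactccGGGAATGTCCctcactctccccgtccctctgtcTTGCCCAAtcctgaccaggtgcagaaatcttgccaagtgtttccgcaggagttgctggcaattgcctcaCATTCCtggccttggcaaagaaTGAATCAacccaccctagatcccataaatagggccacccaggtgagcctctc
CD14, chr5:140633176-140633425, minus strand: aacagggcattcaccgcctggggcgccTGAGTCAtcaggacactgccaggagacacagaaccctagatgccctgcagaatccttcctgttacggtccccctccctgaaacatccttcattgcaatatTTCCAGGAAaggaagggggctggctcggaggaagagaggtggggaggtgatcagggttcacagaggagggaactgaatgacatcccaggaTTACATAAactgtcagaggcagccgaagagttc
PIGR, chr1:206946467-206946716, minus strand: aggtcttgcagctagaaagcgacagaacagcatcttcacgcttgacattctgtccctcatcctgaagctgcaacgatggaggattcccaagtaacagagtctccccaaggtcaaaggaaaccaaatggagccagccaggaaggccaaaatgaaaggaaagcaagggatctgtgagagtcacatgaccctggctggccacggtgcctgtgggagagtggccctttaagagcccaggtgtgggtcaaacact

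The LCN2 window held the NF-kB letters once, 176 to 167 bases before the start, as GGGAATGTCC. A match to the TEAD letters lies inside that match, from 175 to 170 bases before the start, and another TEAD match lies 74 to 69 bases before it. LCN2 also held 1 C/EBP and 1 AP-1 match. The CD14 window held 1 match each for AP-1, STAT and C/EBP and none for NF-kB or TEAD. The DMBT1 window, not shown, held 1 C/EBP match (TTGGGCAA, 197 to 190 bases before the start) and no other match. DMBT1 did not pass the test, but it lay below the array median on all 9 arrays, where a fall could be missed. The C/EBP letters occur in 33.2% of all promoters, so no link of these letters to the falls can be read from this. None of the 5 letter strings occurred in the PIGR window, the gene with the deepest fall among the members. A match is a description of letters and not evidence of binding, and the absence of a match says only that these letters are not in this window.

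LCN2 encodes lipocalin 2, which starves bacteria of iron by binding their siderophores. Its probe set 212531_at read 13.04, 13.12, 12.90 and 13.02 on the empty vector arrays and 12.18, 12.37, 12.21, 12.34 and 12.20 on the YAPS127A arrays. Every YAPS127A array was below every empty vector array, by at least 0.53. The mean went from 13.02 ± 0.09 (SD, n = 4) to 12.26 ± 0.09 (SD, n = 5), a log2 difference of -0.76 (SE 0.07, limma adjusted p = 1.06e-05). All 9 arrays lay above their upper quartiles, so LCN2 remained a bright transcript in both groups. Of the transcripts of its partners, the receptor gene SLC22A17 differed by 0.05 (adjusted p = 0.664). MMP9, whose protease forms a complex with lipocalin 2, differed by -0.10 (adjusted p = 0.496). SLC22A17 lay below the array median on 8 of 9 arrays and MMP9 on 7. At such levels the lack of a difference is not informative.

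LYZ encodes lysozyme, which cleaves the peptidoglycan of bacterial cell walls. Its brighter probe set, 213975_s_at, read 7.46, 7.65, 7.32 and 7.25 with the empty vector and 5.04, 4.91, 5.31, 5.22 and 5.41 with YAPS127A. The groups were separated by 1.85, the widest gap among the 13 probe sets. The mean fell from 7.42 ± 0.17 (SD, n = 4) to 5.18 ± 0.20 (SD, n = 5), a difference of -2.25 (SE 0.11, adjusted p = 8.59e-08). Ordered from the lowest, this difference ranked 63 among those of all 19775 genes. The YAPS127A values lay below the array medians, and no detection calls were used, so they are not shown to be above background and the 4.74-fold and the rank are not exact.

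The second LYZ probe set, 1555745_a_at, stayed near the lower quartile of the arrays, at 4.27 ± 0.09 (SD, n = 4) and 4.14 ± 0.17 (SD, n = 5). Its difference of -0.13 (95% confidence interval -0.33 to 0.07) did not pass (adjusted p = 0.360). It was below the array median on all 9 arrays. As the mean of both probe sets LYZ was at -1.19, still past the threshold.

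DEFB1 encodes beta-defensin 1, a short cationic peptide that disrupts bacterial membranes and that epithelia make without stimulation. It read 6.72, 7.47, 7.17 and 6.93 with the empty vector and 6.02, 5.66, 5.84, 5.88 and 5.90 with YAPS127A. The empty vector arrays spread over 0.75, the widest spread of any member in that group, and still lay above all YAPS127A arrays. The mean fell from 7.07 ± 0.32 (SD, n = 4) to 5.86 ± 0.13 (SD, n = 5), a difference of -1.21 (SE 0.13, adjusted p = 4.27e-05). With YAPS127A the signal was close to or below the array medians.

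SAA1 and SAA2 encode the serum amyloid A proteins, lipoprotein-bound acute-phase reactants that attract leukocytes. Their transcripts are so alike that the platform assigns 1 probe set to both genes and the other to both and to the read-through transcript SAA2-SAA4, so neither gene can be given alone. Probe set 214456_x_at read 13.41, 13.38, 13.41 and 13.32 with the empty vector and 12.81, 12.72, 12.62, 12.71 and 12.60 with YAPS127A. It fell by 0.69 on the log2 scale (SE 0.06, adjusted p = 1.10e-05). Probe set 208607_s_at, which also reads the read-through, had 13.45, 13.54, 13.40 and 13.33 against 12.64, 12.47, 12.35, 12.57 and 12.41. It fell by 0.94 (SE 0.08, adjusted p = 3.91e-06). Neither probe set overlapped between groups, and both stayed above the upper quartile on all 9 arrays, so serum amyloid A was among the bright signals of this line with and without YAPS127A.

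PI3 and SLPI encode elafin and the secretory leukocyte protease inhibitor, small proteins with whey acidic protein (WAP) domains that protect epithelia from neutrophil elastase. Both genes lie on chromosome 20. PI3 was modestly lower at both of its probe sets. Probe set 203691_at read 9.79, 10.07, 9.97 and 9.93 with the empty vector and 9.75, 9.41, 9.14, 9.72 and 9.63 with YAPS127A, a difference of -0.41 (SE 0.12, adjusted p = 0.0277). Probe set 41469_at read 9.02, 9.27, 9.27 and 9.22 against 8.97, 8.65, 8.43, 8.87 and 8.82, a difference of -0.45 (SE 0.11, adjusted p = 0.00930). The groups did not overlap at either probe set, but the nearest arrays were only 0.04 apart.

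The call at 203691_at was kept in 12 of 18 alternatives. It was lost in the fits without empty vector replicate 2 (-0.37, adjusted p = 0.0831), replicate 3 (-0.40, adjusted p = 0.0639) or replicate 4 (-0.42, adjusted p = 0.0602), without YAPS127A replicate 2 (-0.38, adjusted p = 0.0601), and with the gap between the 3' and 5' actin probe sets, a measure of RNA integrity, as a covariate (-0.38, adjusted p = 0.0551). The remaining loss was with the replicate block (-0.44, adjusted p = 0.0708). The call at 41469_at was kept in all 17 alternatives it entered, with a highest adjusted p = 0.0465.

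SLPI read 9.68, 9.92, 9.97 and 9.66 with the empty vector and 9.94, 9.67, 9.48, 9.95 and 9.92 with YAPS127A. The groups overlapped, except that YAPS127A replicate 3 lay below every empty vector array. The difference was -0.01 (95% confidence interval -0.26 to 0.23, adjusted p = 0.960), and the differences of LCN2 and LYZ lie outside this interval. YAPS127A replicate 3 was the lowest array for SLPI and for both PI3 probe sets.

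**Figure D2:**
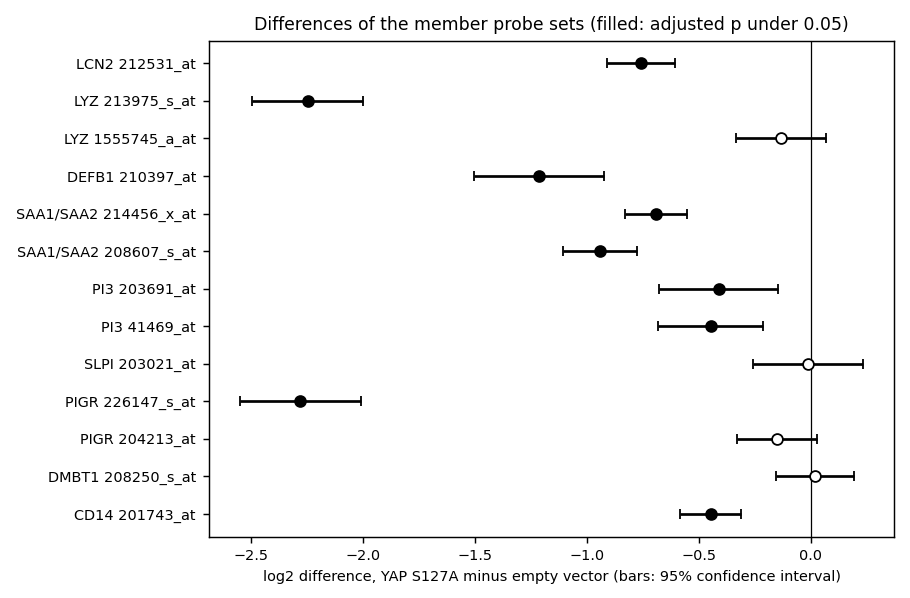
Log2 difference of YAPS127A minus empty vector for each of the 13 probe sets, with 95% confidence intervals as horizontal bars. Filled points passed an adjusted p under 0.05 in limma. PIGR 226147_s_at and LYZ 213975_s_at stand farthest to the left at -2.28 and -2.25, and the intervals of SLPI, DMBT1 and the second LYZ and PIGR probe sets include 0.

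PIGR encodes the polymeric immunoglobulin receptor, which carries immunoglobulin A across the epithelium and releases it with the secretory component. Probe set 226147_s_at read 8.78, 8.59, 8.37 and 8.80 with the empty vector and 6.46, 6.43, 6.62, 6.21 and 6.05 with YAPS127A. All YAPS127A arrays lay at least 1.75 below the lowest empty vector array. The mean fell from 8.63 ± 0.20 (SD, n = 4) to 6.36 ± 0.22 (SD, n = 5), a difference of -2.28 (SE 0.12, adjusted p = 1.52e-07), which ranked 58 from the lowest among all genes. Genes near PIGR on chromosome 1 were also lower, with a median of -0.29 over up to 50 neighbours. With that median subtracted on each array, the difference of PIGR was -1.99 and it passed.

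The second PIGR probe set, 204213_at, read 4.31 ± 0.16 (SD, n = 4) and 4.16 ± 0.08 (SD, n = 5), below the median on all 9 arrays and below the lower quartile on 7. Its difference of -0.15 (95% confidence interval -0.33 to 0.03) did not pass (adjusted p = 0.228), and 4 of its 9 array values were identical to the last digit. Averaged over both probe sets PIGR was at -1.21 and passed. Of the genes for the transport of the receptor, RAB3B, a small GTPase that binds PIGR, rose by 0.96 (SE 0.07, adjusted p = 2.78e-06). All 5 of its probe sets were higher. RAB3B was at 0.67 with its neighbours' median of 0.30 removed and at 0.82 averaged over its probe sets, and passed in both.

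DMBT1 encodes a scavenger receptor protein of mucosal secretions that agglutinates bacteria. It read 5.25, 5.02, 5.25 and 5.36 with the empty vector and 5.38, 5.18, 5.25, 5.14 and 5.24 with YAPS127A. All values lay below the array medians and the groups overlapped. The difference was 0.02 (95% confidence interval -0.16 to 0.19, adjusted p = 0.910).

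CD14 encodes the protein that hands lipopolysaccharide of Gram-negative bacteria to the receptor complex of TLR4 and LY96. Its probe set read 6.30, 6.19, 6.07 and 6.21 with the empty vector and 5.80, 5.69, 5.73, 5.75 and 5.76 with YAPS127A. The 5 YAPS127A arrays agreed closely and lay at least 0.28 below the others. The mean fell from 6.19 ± 0.09 (SD, n = 4) to 5.75 ± 0.04 (SD, n = 5), a difference of -0.45 (SE 0.06, adjusted p = 0.000259), at a level near the array medians. The neighbours of CD14 on chromosome 5 had a median of -0.14, and with it removed the difference was -0.31 and passed (adjusted p = 0.00431).

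The partners of CD14 moved in opposite directions. TLR4, the signalling receptor for lipopolysaccharide, read 6.95, 6.66, 6.64 and 6.74 with the empty vector and 9.54, 9.57, 9.87, 9.74 and 9.83 with YAPS127A. It rose by 2.96 on the log2 scale (SE 0.09, adjusted p = 1.86e-09), or 7.81-fold, at all 4 of its probe sets. LY96, which encodes the MD-2 protein that binds lipopolysaccharide beside TLR4, read 8.85, 9.09, 9.06 and 9.07 against 8.51, 8.65, 8.32, 8.53 and 8.45. Its difference was -0.53 (SE 0.08, adjusted p = 0.000513). Once its neighbours' median of -0.33 was removed, it did not pass (-0.20, adjusted p = 0.0965). The adaptor gene MYD88 differed by 0.09 (adjusted p = 0.603) and LBP, whose product delivers lipopolysaccharide to CD14, by -0.39 (adjusted p = 0.0593). LBP passed as lower with array weights (-0.41, adjusted p = 0.0486), with the neighbours' median removed (-0.38, adjusted p = 0.0463) and without empty vector replicate 1 (-0.49, adjusted p = 0.0242), and was at -0.22 averaged over its probe sets.

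Across the Toll-like receptor and NOD pathway list, 8 of 23 genes were lower (34.8%), 2 higher (8.70%) and 13 short of the threshold. Of all genes, 14.2% were lower and 14.5% higher. The median of the list was -0.04. TLR5, the receptor for flagellin, fell by 1.56 (SE 0.11, adjusted p = 9.24e-07) and IRAK2, a kinase that relays Toll-like and interleukin 1 receptor signals, by 1.18 (SE 0.08, adjusted p = 9.82e-07). IRAK2 was at -0.77 without its neighbours' median and at -0.51 averaged over its probe sets. All 5 YAPS127A values of TLR5 lay below the array medians, so the size of its fall is not exact. Beside TLR4 the other rise was that of NOD1, a sensor of peptidoglycan (0.46), named after its value was seen to complete the count.

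Genes of receptors, adaptors, regulators and transcription factors listed around the inducing pathways moved in both directions. Among 31 of these genes, 11 were lower, 3 higher and 17 short of the threshold, against 14.2% lower and 14.5% higher among all genes, and the median was -0.06. IL1R1, the signalling receptor of interleukin 1, read 8.09, 8.02, 8.08 and 8.12 with the empty vector and 7.04, 7.10, 7.12, 6.99 and 7.05 with YAPS127A. It fell by 1.02 (SE 0.06, adjusted p = 2.33e-07), and averaged over its probe sets it was at -0.63. NFKBIZ, which encodes IkB-zeta, a co-activator that NF-kB needs at LCN2, read 12.25, 12.24, 12.15 and 12.08 against 11.40, 11.50, 11.41, 11.15 and 11.08. It fell by 0.87 (SE 0.09, adjusted p = 3.44e-05) at both of its probe sets.

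CEBPD and CEBPB encode C/EBP factors of the acute-phase response, and they fell by 0.76 (SE 0.10, adjusted p = 0.000200) and 0.27 (adjusted p = 0.00667). The epithelial ETS factor genes EHF and ELF3 fell by 0.72 and 0.66, with all 6 and all 3 of their probe sets lower. EHF was at -0.34 with the neighbours' median removed and at -1.30 averaged over its probe sets. TRAF3IP2, the adaptor of interleukin 17 receptors, was at -0.63, and at -0.21 without its neighbours' median of -0.41, where it still passed (adjusted p = 0.0199).

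The 3 that rose were the interleukin 17 receptor subunit IL17RA, by 0.75 (SE 0.10, adjusted p = 0.000186), and IL17RB and the oncostatin M receptor gene OSMR, by 1.47 and 0.24, which were named after their values were seen to complete the count. IL17RC, the partner subunit of IL17RA, differed by -0.04 (adjusted p = 0.661). Its neighbours on chromosome 3 had a median of -0.42, and with this removed it was higher by 0.37 (adjusted p = 0.000624). STAT3 (-0.12, adjusted p = 0.211) and IL6ST (-0.02, adjusted p = 0.907), the transcription factor and the shared receptor of the interleukin 6 pathway, did not pass.

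**Figure D3:**
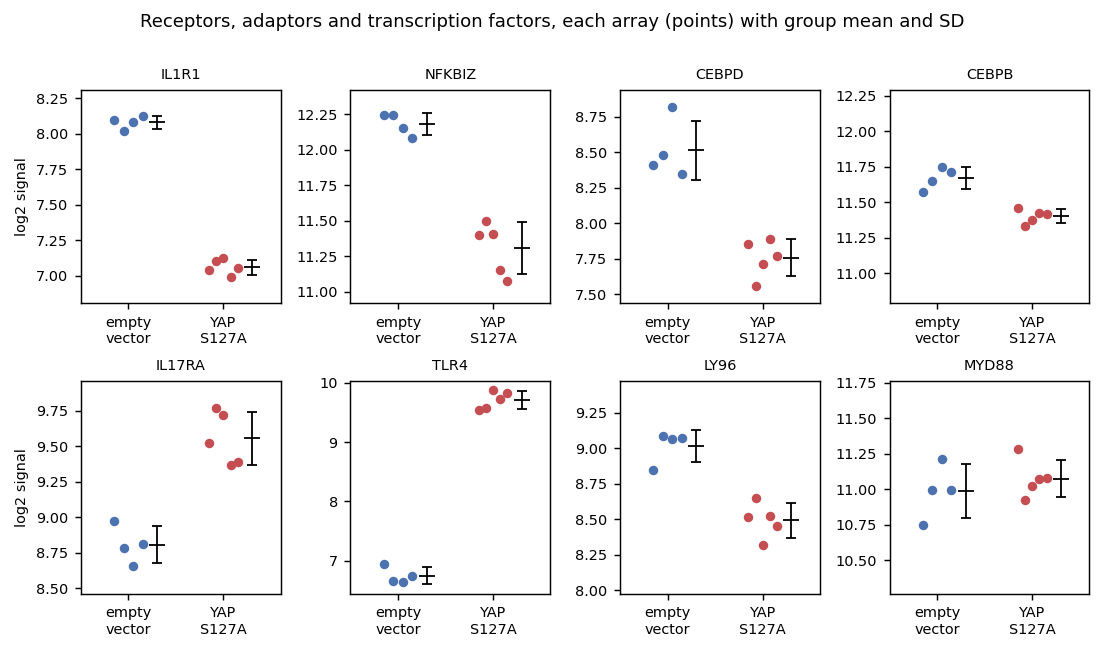
Log2 signal of 8 genes of the inducing pathways on the 4 empty vector arrays (blue) and the 5 YAPS127A arrays (red), with group mean and SD in black and a separate vertical axis for each panel. TLR4 and IL17RA are higher on all YAPS127A arrays, IL1R1, NFKBIZ, CEBPD, CEBPB and LY96 are lower on all of them, and the groups of MYD88 overlap.

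Other acute-phase genes were lower or did not pass. Among 19 of them, 6 were lower (31.6%) and 0 higher by limma, against 14.2% and 14.5% of all genes. In either direction 9 had an unadjusted p under 0.05, and the median was -0.17. CFB, complement factor B, fell by 1.49 (SE 0.10, adjusted p = 6.52e-07), VNN1, a pantetheinase of the cell surface, by 1.37, and C3, the central complement component, by 0.88. Averaged over its probe sets CFB was at -0.71, and VNN1 was at -0.91 with the neighbours' median removed. The serpin genes SERPINA3 and SERPINA1, for inhibitors of cathepsin G and neutrophil elastase, fell by 1.07 and 0.62. SERPINA3 was dim, with means of 5.92 and 4.85 and below the array median on 7 of 9 arrays, so its fall is not exact. SERPINA1 was bright, at 12.76 and 12.14. The haptoglobin gene HP differed by -0.16 (adjusted p = 0.108), with neighbours at 0.39, and without their median it was at -0.55 and passed. ITIH4, the remaining member that fell, was at -0.26 and was named after its value was seen.

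Most other secreted antimicrobial genes did not pass. Among 33 of them, 4 were lower (12.1%), 2 higher (6.06%) and 27 short of the threshold, both shares below the 14.2% and 14.5% of all genes, and the mean level of 29 was below the lowest array median. The chemokine gene CCL28, whose product is antimicrobial and draws cells that make immunoglobulin A, fell by 1.28 (SE 0.11, adjusted p = 4.39e-06) at all 3 of its probe sets. CCL20, another antimicrobial chemokine of epithelia, fell by 0.54 (SE 0.08, adjusted p = 0.000440). LTF, which encodes the iron-binding lactoferrin, rose by 0.97 (SE 0.12, adjusted p = 0.000123), from 5.56 ± 0.07 (SD, n = 4) to 6.53 ± 0.27 (SD, n = 5). Its empty vector values lay below the array medians, so the size of this rise is not exact. ANG, the ribonuclease angiogenin, rose by 0.89 (SE 0.19, adjusted p = 0.00437). The remaining 2 that fell were LYG2 (-0.24), named after its value was seen, and S100A8 (-0.31), a subunit of calprotectin.

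The call of S100A8 was lost in 10 alternatives, 7 of which left out 1 array, with values from -0.33 to -0.14, the last with the neighbours' median removed (adjusted p = 0.301). Its groups overlapped, and it lay below the lower quartile on 8 of 9 arrays. S100A9, the other subunit, was at -0.31 and did not pass (adjusted p = 0.105).

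Among WAP proteins, related protease inhibitors and their target proteases, 3 of 16 genes fell and 3 rose, or 18.8% each. Of all genes, 14.2% were lower and 14.5% higher. WFDC2, an epithelial WAP protein encoded on chromosome 20 like PI3 and SLPI, read 8.62, 8.83, 8.27 and 8.55 with the empty vector, and its mean was 7.13 ± 0.11 (SD, n = 5) with YAPS127A. It fell by 1.44 (SE 0.10, adjusted p = 1.69e-06) at 1 of its 3 probe sets, and was at -0.47 as their mean. WFDC3 fell by 0.67 (adjusted p = 0.000210) and the trypsin inhibitor gene SPINK1 by 1.44 (adjusted p = 3.36e-05), whereas WFDC12 rose by 0.33 (adjusted p = 0.00570). The other two that rose, SPINT2 and CTSG, differed by 0.19 and 0.25 and were named after their values were seen. The neighbours of WFDC2, WFDC3 and WFDC12 on chromosome 20 had medians of -0.03, -0.03 and -0.05.

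Among receptors and partners of the member proteins, 1 of 23 fell (4.35%) and 3 rose (13.0%), against 14.2% and 14.5% of all genes. Besides RAB3B, the partners that rose were CXCR4, a chemokine receptor (0.35, adjusted p = 0.00154), and LCAT (0.62, adjusted p = 0.0167). LCAT encodes an enzyme of the lipoproteins that carry serum amyloid A. LGALS3, a lectin that binds mucosal glycoproteins, fell by 0.29 (adjusted p = 0.0124). With the neighbours' median removed, LCAT was at 0.29 and LGALS3 at -0.10 and neither passed. LCAT did not pass without empty vector replicate 4 (0.56, adjusted p = 0.0561). Averaged over its probe sets CXCR4 was higher by 0.84.

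**Figure D4:**
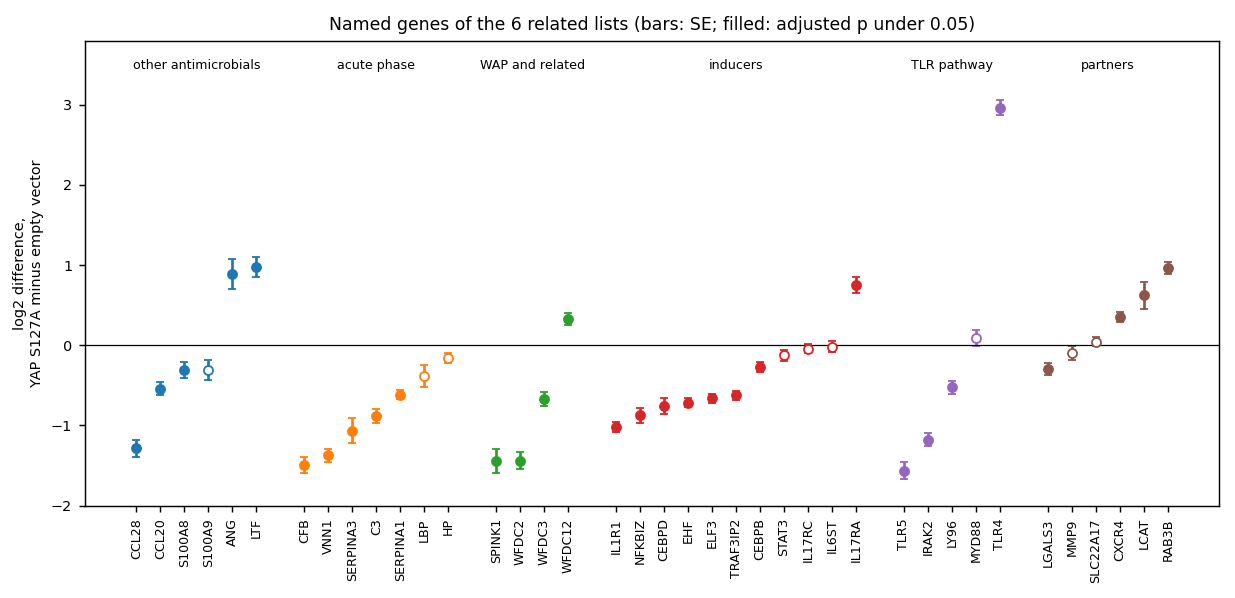
Log2 difference of YAPS127A minus empty vector (vertical axis) for the named genes of the 6 related lists, coloured by list, with the SE as bars and filled points for an adjusted p under 0.05. TLR4 stands highest at 2.96, and the named acute-phase genes all lie below 0. They were picked partly by lowest p, and no gene of that list passed as higher. Some unnamed genes of that list, such as FGG (0.11), lie above 0.

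LYZ, CD14 and S100A8 are also known from macrophages and neutrophils, so the defining markers of these cells were read on the same arrays. By the brightest probe set, none of 13 monocyte and macrophage markers passed in limma, and 0 had an unadjusted p under 0.05. Among their other probe sets, 1 of PTPRC passed as higher and 1 each of MS4A7 and LYN as lower. Of the 13 markers, 12 had a mean level below the lowest array median, among them PTPRC (4.05 and 4.03), CSF1R (4.82 and 4.78), ITGAM (5.06 and 5.09) and SPI1 (5.82 and 5.98). The remaining marker, LYN, a kinase not limited to these cells, read 11.51 and 11.40 and carried most of the summed signal, which was 11.59 to 11.79 with the empty vector and 11.42 to 11.84 with YAPS127A on the log2 scale. Without LYN, a choice made after its level was seen, the sum of the other 12 was 8.41 to 8.46 and 8.47 to 8.57. All 11 neutrophil markers were below the lowest array median, with 1 higher (CTSG) and 1 lower (MPO, -0.41, adjusted p = 0.0220) and a summed signal of 8.06 to 8.19 against 8.10 to 8.20. In RNA of whole cultures, fewer cells with a transcript and less of it per cell cannot be told apart.

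Of 14 hepatocyte markers, which matter for the acute-phase genes, 1 passed, the urea cycle gene CPS1, which rose by 2.09 and was named after its value was seen, and ALB was at 4.26 and 4.23. The summed signal of this list was 9.34 to 9.52 with the empty vector and 10.14 to 10.32 with YAPS127A, and without CPS1 it was 8.98 to 9.09 and 8.93 to 9.02. Of 10 fibroblast markers, 2 rose, LUM (1.45) and ACTA2 (0.89), both named after their values were seen, and COL1A1 fell by 0.70, or was at -0.40 averaged over its probe sets. The summed signal was 9.48 to 9.61 against 9.75 to 10.14, and without LUM 9.15 to 9.22 against 9.01 to 9.18. The summed signal of the 16 biliary markers overlapped between groups (16.22 to 16.31 and 16.23 to 16.34). Bright keratins such as KRT18 (means 14.26 and 14.34) carry this sum. It cannot register the falls of dimmer markers such as CFTR (6.74 and 4.02). The part of the marker shifts in the members' falls was not tested.

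The falls of LCN2, LYZ, DEFB1, the SAA probe sets, PIGR and CD14 passed under all alternatives they entered. LCN2 ranged from -0.80 to -0.73, DEFB1 from -1.33 to -1.08 and CD14 from -0.49 to -0.31. LYZ ranged from -2.30 to -1.19 and PIGR from -2.37 to -1.21, with the smallest values from the mean over probe sets.

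**Figure D5:**
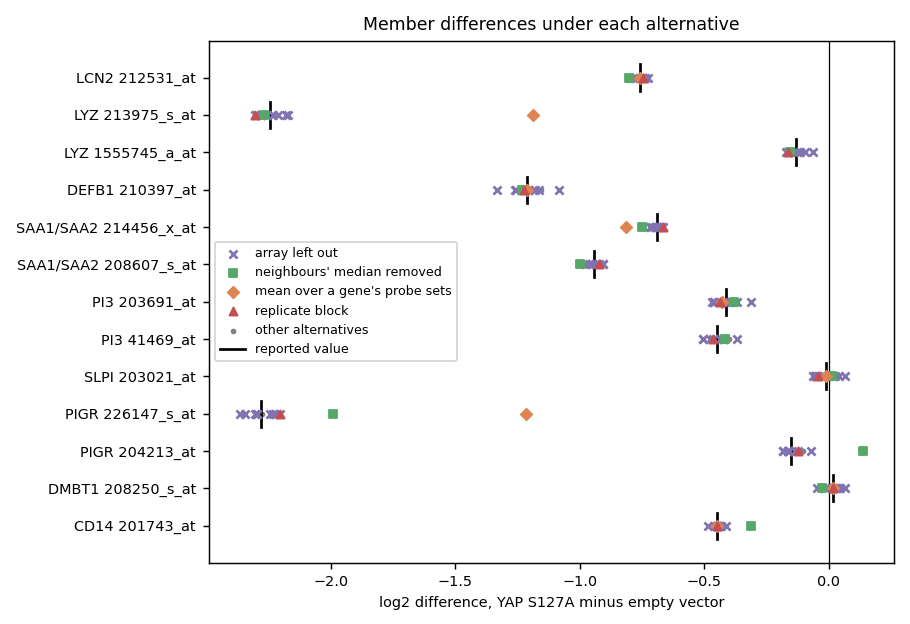
Log2 difference of each of the 13 probe sets (rows) as reported (black line) and under each alternative: an array left out (crosses), the neighbours' median removed (squares), the average of all probe sets of a gene (diamonds), the replicate block (triangles) and the others (grey points). The points of most probe sets cluster at the reported value, and the diamonds of LYZ and PIGR lie at -1.19 and -1.21.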

How the data were processed

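RNA of 9 HuCCT1 samples was amplified and hybridised to 1-colour Affymetrix arrays. The authors deposited log2 values for 54675 probe sets per array; that these are log2 values was read from their range (1.63 to 15.0), and the sources used here do not give their normalization method. No scanner files were used, so detection calls and scan dates were not examined, and precision rests on 9 arrays. Gene symbols came from the platform annotation, updated through RefSeq: 41091 probe sets had 1 gene, 1801 several and 11721 none, and 62 control probe sets were set aside.

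Groups were compared in limma 3.58.1 (lmFit and eBayes, R 4.3.3), 2-sided, with Benjamini-Hochberg adjustment over 54613 probe sets and a threshold of 0.05. A gene outside the members was read by its brightest probe set, the one with the highest mean over 9 arrays. Differences are YAPS127A minus empty vector on the log2 scale, and errors are SD over arrays or SE of the fit. Named were all member probe sets, up to 4 genes with the lowest p in each related list, and fixed partners and markers. The members and lists were chosen with earlier results of these data known.

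Alternatives changed the normalization (quantile, median centring), the filter on dim probe sets, the eBayes settings, array weights, the replicate block, the arrays included, averaging all probe sets of a gene, the removal of the median of up to 50 neighbouring genes (25 on each side in RefSeq order), and the gap between 3' and 5' actin probe sets as a covariate. On simulated data of 54613 probe sets, the fit recovered 2% of 50 changes of 0.25 and 62% of 50 changes of 0.5. It recovered 100% of those of 1 or 2, with 15 false calls. Only these probe sets were changed in the simulation, whereas 23.9% of all probe sets passed on the real arrays. The adjusted threshold is stricter when few probe sets change, so these shares do not give the sensitivity of the real fit.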

Additional observations from a re-analysis of the deposited data

Results flagged for a closer look

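In 124 groups of 4 or 5 arrays, Dixon's test set 5 single arrays apart, and chance flags about 1 group in 20. None of the member probe sets was among them. For ALB, YAPS127A replicate 5 was lowest at 4.22, with the others all at 4.24. For CFB, YAPS127A replicate 1 was highest at 8.87, with the others from 8.41 to 8.52. For EHF, empty vector replicate 3 was lowest at 13.10, with the others from 13.18 to 13.20. For LY96, empty vector replicate 1 was lowest at 8.85, with the others from 9.06 to 9.09. For TLR5, YAPS127A replicate 2 was lowest at 5.25, with the others from 5.64 to 5.78.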

How the results depend on the processing

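The 7 members that fell by the brightest probe set numbered 6 to 7 over the alternatives and 6 to 7 with 1 array left out, and the 9 probe sets numbered 8 to 9. PI3 203691_at accounts for each loss. Over the 6 related lists, 33 genes fell (26 to 36 over the alternatives) and 13 rose (10 to 18). With the neighbours' median removed, 3 genes that had not passed changed sign and passed: IL17RC (0.37), ITGAM (-0.32) and PTPRC (0.26). The macrophage marker SPI1 (0.38, adjusted p = 0.00311 in limma) also passed there. The cause was not tested. MPO lost its call there (-0.16) and without empty vector replicate 1 or 3 or YAPS127A replicate 2. The log2(value + 1) alternative was not run, because the values were already on the log2 scale. Low signals limit DMBT1 and the second probe sets of LYZ and PIGR.

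With the replicate block, PI3 203691_at (-0.44, adjusted p = 0.0708 in limma), LGALS3 (-0.29, adjusted p = 0.0613) and S100A8 (-0.30, adjusted p = 0.136) did not pass, 6 members fell by the brightest probe set and 8 by all probe sets, and over the related lists 26 fell and 10 rose. No sign was seen that the replicate numbers pair the samples. The correlations of deviations between same-numbered arrays were -0.25 to 0.04 over 4 pairs, and 0 of 8 arrays correlated best with the array of its own number. A weak pairing could be missed by this check, and the labels do not say whether the numbers pair samples.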
